A study of Mus musculus with 6 samples.

Results

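The 10 genes described here encode the enzymes that oxidize ethanol to acetaldehyde and acetaldehyde to acetate: the alcohol dehydrogenases Adh1, Adh4, Adh5 and Adh7, the aldehyde dehydrogenases Aldh1a1, Aldh1b1, Aldh2 and Aldh3a2, the cytochrome P450 Cyp2e1 and catalase (Cat). They were chosen by function, as gene names on the array that matched exactly, and make up 10 of the 27962 distinct names and 13 of the 41174 probes. RNA came from livers of male 129/Sv mice that were 6 to 8 weeks old when treatment began. Alcohol-treated mice received a liquid diet with 4% ethanol for 1, 2 or 4 months, and control mice received an isocaloric liquid diet with maltose dextran in place of ethanol; all mice had first been adapted to the control diet. Equal amounts of RNA from 6 mice per group were pooled, so that each month is represented by 1 alcohol pool and 1 control pool and the variation between mice was not measured.

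Most ingested ethanol is oxidized in the liver. Alcohol dehydrogenases in the cytosol pass its electrons to NAD+, Cyp2e1 in the endoplasmic reticulum uses NADPH and oxygen, and catalase in peroxisomes uses hydrogen peroxide; the product of all of these routes is acetaldehyde, a reactive compound that aldehyde dehydrogenases oxidize to acetate. Cyp2e1 is known as an enzyme whose protein is stabilized by its own substrates, ethanol among them, so that its protein can change with little change in mRNA.

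The 2 pools of a month were hybridized together on a dye-swap pair of two-color arrays, which gave 6 arrays with 43379 measured spots each. Values below are log2 ratios of alcohol over control, on which 1 unit is a 2-fold difference. The mean of a pair is given with the SD of its 2 arrays, which is technical. The number of arrays limits the precision: both arrays of a month count as 1 replicate, which leaves 3 monthly values for a test. In a channel of an array, 73.3% to 90.3% of the spots passed as well above background. Of the 13 probes of the enzymes, 12 did so in both channels of every array, and 0 of their spots were saturated. The 1-month arrays lay on another slide than the 2- and 4-month arrays, so that a slide effect cannot be told apart from a difference of 1 month from the rest. All 6 measured hepatocyte marker genes, Alb and Ttr among them, were well above background in every pool.

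Adh4, whose ratio moved furthest, and the aldehyde dehydrogenase genes Aldh3a2, Aldh1a1 and Aldh1b1, which were higher together in the 1-month alcohol pool, are shown here with the 250 bases before their transcription start, 5′ to 3′ on the strand of the gene, from RefSeq on GRCm38.p6. RefSeq promoter entries matched 9 of the 10 members, all but Aldh2. Capitals mark matches, on either strand, to 5 short motifs: the TATA box TATAAA, the CCAAT box CCAAT, the GC box GGGCGG, the nuclear receptor half-site AGGTCA, and TGACNNNGC, a core of the antioxidant response element.
Adh4, chr3:138415247-138415496, plus strand: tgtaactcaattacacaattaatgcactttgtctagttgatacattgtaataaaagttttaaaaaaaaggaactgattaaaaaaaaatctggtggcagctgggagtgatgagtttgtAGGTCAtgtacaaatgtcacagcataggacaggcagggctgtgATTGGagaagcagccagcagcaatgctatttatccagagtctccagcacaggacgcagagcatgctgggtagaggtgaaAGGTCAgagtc
Aldh3a2, chr11:61267187-61267436, minus strand: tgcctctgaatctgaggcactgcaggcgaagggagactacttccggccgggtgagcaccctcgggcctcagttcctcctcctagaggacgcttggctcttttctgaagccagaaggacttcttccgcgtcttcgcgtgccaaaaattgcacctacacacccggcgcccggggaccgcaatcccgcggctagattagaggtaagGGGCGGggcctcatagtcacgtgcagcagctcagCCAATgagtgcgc
Aldh1a1, chr19:20601718-20601967, plus strand, the downstream of its 2 listed starts: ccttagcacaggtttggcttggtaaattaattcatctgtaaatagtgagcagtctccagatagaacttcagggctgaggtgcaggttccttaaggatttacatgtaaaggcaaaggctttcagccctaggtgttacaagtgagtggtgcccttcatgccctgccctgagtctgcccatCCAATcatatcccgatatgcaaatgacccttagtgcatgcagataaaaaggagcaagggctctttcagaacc
Aldh1b1, chr4:45798772-45799021, plus strand: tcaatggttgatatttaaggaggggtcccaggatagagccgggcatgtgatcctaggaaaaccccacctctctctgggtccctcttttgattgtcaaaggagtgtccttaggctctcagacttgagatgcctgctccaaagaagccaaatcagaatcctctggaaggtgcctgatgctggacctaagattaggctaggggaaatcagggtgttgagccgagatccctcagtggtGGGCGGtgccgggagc

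The Adh4 window held AGGTCA at 133 and at 11 bases before the start and a CCAAT box, on the opposite strand, at 90 bases. In the Aldh3a2 window a GC box lay 47 bases and a CCAAT box 13 bases before the start, while the Aldh1a1 window held a CCAAT box at 72 bases and the Aldh1b1 window a GC box at 16 bases. No pair of these matches overlapped, and none of the 4 windows held TATAAA or TGACNNNGC. The window of the upstream Aldh1a1 start, which is not shown, held no match to any of the motifs. Which of its starts Aldh1a1 uses in mouse liver is not known here. Among all 32851 promoter windows of this length, 12.4% held TATAAA, 33.8% CCAAT, 32.7% GGGCGG, 14.02% AGGTCA and 10.2% TGACNNNGC. A match describes the letters only and is not a binding site.

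**Figure D1:**
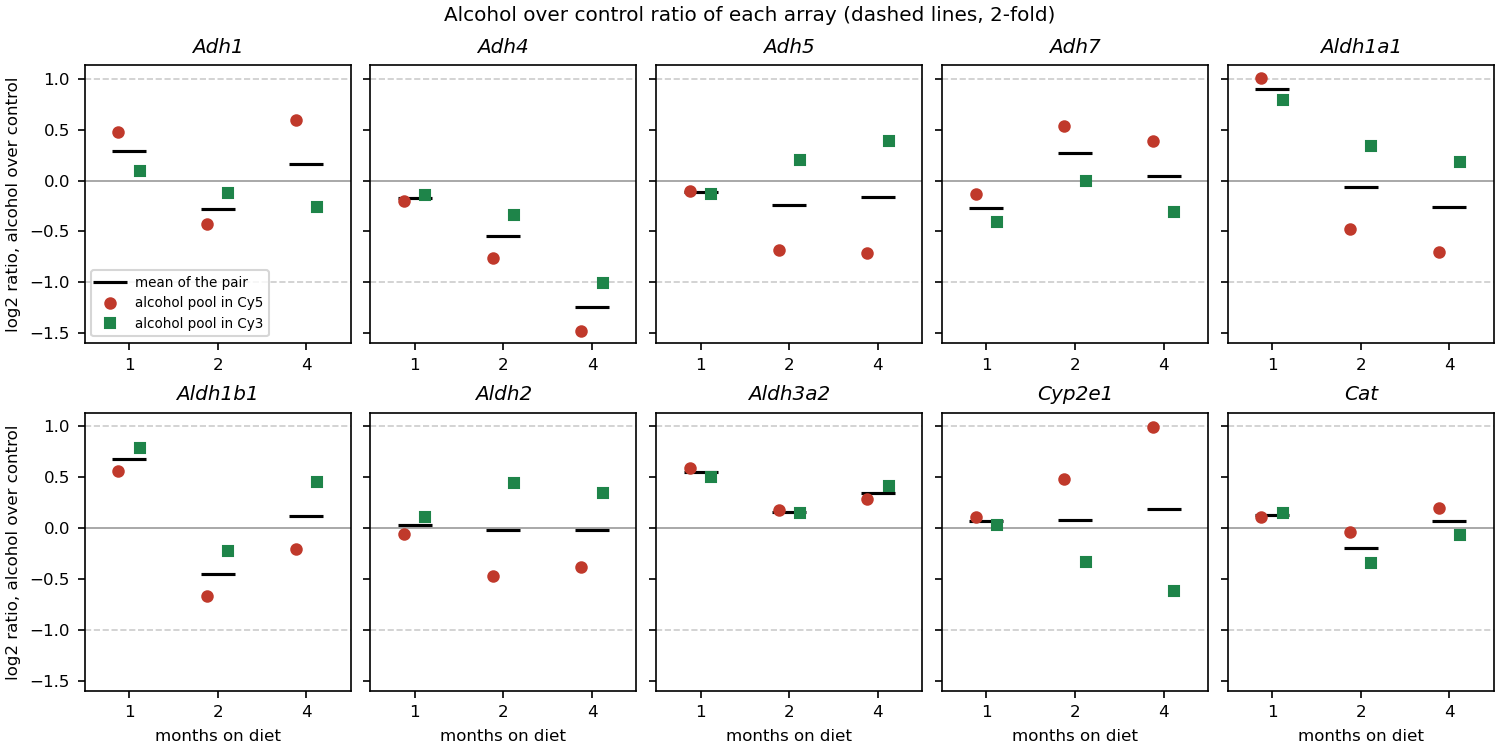
Log2 ratio of alcohol over control (y axis) after 1, 2 and 4 months on the diets (x axis) for the first-named probe of each enzyme. Circles are arrays with the alcohol pool in Cy5, squares arrays with it in Cy3, bars the mean of the pair and dashed lines a 2-fold difference. Adh4 lay below 0 and Aldh3a2 above 0 on all 6 arrays, and the 2 Cyp2e1 arrays of 4 months lay on opposite sides of 0, at 1.00 and -0.62.

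The alcohol dehydrogenase gene Adh4 was lower in the alcohol pool at every month, and its ratio at 4 months was the largest difference of any of these enzymes. Aldh3a2, which oxidizes long-chain fatty aldehydes, was higher at every month by a smaller amount. Aldh1a1 and Aldh1b1 were 1.86-fold and 1.60-fold higher at 1 month and were not higher on both arrays at either later month. Adh1, Aldh2, Cat and Cyp2e1, the enzymes most often named for ethanol and acetaldehyde oxidation in liver, had monthly mean ratios between -0.28 and 0.29.

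A probe was called at a month when its mean ratio passed 2-fold and its technical error gave p below 0.05, a filter that is no test between mice. By this rule 0 of the 13 probes of the enzymes were called at 1 month, where 0.224% of all 37922 probes tested were called, and 0 at 2 months, where 0.311% were. At 4 months 1 probe, that of Adh4, was lowered, beside 0.295% of all probes lowered and 0.367% raised. With a 1.5-fold threshold, Aldh1a1 and Aldh1b1 were raised at 1 month, beside 0.374% of all probes, none was called at 2 months, beside 1.55% of all probes called in either direction, and Adh4 was lowered at 4 months, beside 1.27%.

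Across months, the 3 monthly means were tested as replicates with limma, for an alcohol effect (a mean other than 0) and for a trend (a slope per doubling of time), with Benjamini-Hochberg adjustment over the 37922 probes. No probe of these enzymes passed an adjusted p of 0.05 in either test, and limma called 0 of all probes for the effect (0.0%) and 0 for the trend (0.0%). At an unadjusted p below 0.05, limma listed 3 of the 13 probes for the effect (Adh4, Adh5 and Aldh3a2), beside 7.94% of all probes, and 2 for the trend (Adh4 and Aldh1a1), beside 7.12%. An exact sign permutation of 3 values cannot give a two-sided p below 0.25.

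Of the 12 probes measured on all arrays, 1 was higher and 1 lower on all 6 arrays, beside 1.61% and 2.68% of all 27900 such probes. Within a month, the 2 arrays gave the same direction for 10 of the 12 probes at 1 month, 6 at 2 months and 2 at 4 months, beside 48.2%, 34.5% and 30.1% of all probes. The median size of the ratio of the 12 probes was 0.19, 0.18 and 0.14 at 1, 2 and 4 months. Over all probes measured on all arrays it was 0.08, 0.09 and 0.10. This comparison was not matched for brightness. The first-named probes of Adh1, Aldh1a1, Aldh2, Cyp2e1 and Cat were each brighter than at least 98.4% of all probes tested.

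Adh4 encodes the class II alcohol dehydrogenase, a liver enzyme that also oxidizes retinol. Its log2 ratio at 1 month was -0.21 with the alcohol pool in Cy5 and -0.14 with it in Cy3, a mean of -0.17 ± 0.05 (SD, n = 2 arrays). At 2 months the arrays gave -0.76 and -0.34, a mean of -0.55 ± 0.30, or 1.46-fold lower. At 4 months they gave -1.47 and -1.01, a mean of -1.24 ± 0.33, or 2.37-fold lower, and both arrays were past 2-fold. Both arrays of 4 months thus lay below all 4 arrays of the earlier months, and 0.140% of all probes had a lower mean ratio at 4 months. Of the Adh4 channel readings, 2 at 4 months came from the low-gain scan that replaces bright or saturated signals, and 0 at 1 and 2 months. The part of this change of scan in the ratio was not tested. The mean over months was -0.65 (SE 0.21, 95% interval -1.21 to -0.10, limma adjusted p = 0.624), and the slope was -0.53 per doubling of time (SE 0.09, limma adjusted p = 0.687). In pooled liver, fewer cells that carry an mRNA and less of it per cell cannot be told apart.

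The single-channel levels of Adh4, each the log2 signal minus the 75th percentile of its channel, were 1.75 and 2.06 in the control pool of 1 month, 2.18 and 2.20 in that of 2 months, and 1.73 and 2.40 in that of 4 months. In the alcohol pool of 1 month they were 1.86 and 1.61, in that of 2 months 1.44 and 1.84, and in that of 4 months 0.93 and 0.72. The pools overlapped at 1 month and were apart at 2 and 4 months, as the plot of pool levels shows. Between 2 and 4 months, on one slide, the mean level of the control pool differed by -0.12 ± 0.47, and that of the alcohol pool went from 1.64 to 0.82. Pancreas acinar markers, which were also measured, were above 0 for 10 of 10 genes at 4 months. Their median log2 ratio was 0.77, where the median of all probes was -0.01. By the 2-fold rule 3 genes were raised (Cela2a, Cpb1 and Pnliprp1), beside 0.367% of all probes raised. These 3 were not well above background in both channels of every array. The summed linear signal, in multiples of the 75th percentile of the channel, was 22.4 in the alcohol pool against 16.6 in the control pool. All 10 genes were above background in each pool on at least 1 array of 4 months. At 2 months their median was 0.002. Blood markers were not of one direction at 4 months. Hba-a1 and Hbb-bt had mean ratios of 0.61 and 0.63, Slc4a1 had -0.01, and Alas2, the heme synthesis enzyme of red cell precursors, was called as lowered at -2.003. Their median was 0.30 and their summed signal 43.3 in the alcohol pool against 30.8 in the control pool. The part of both lists in the 4-month values, those of Adh4 and Aldh3a2 included, was not tested.

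**Figure D2:**
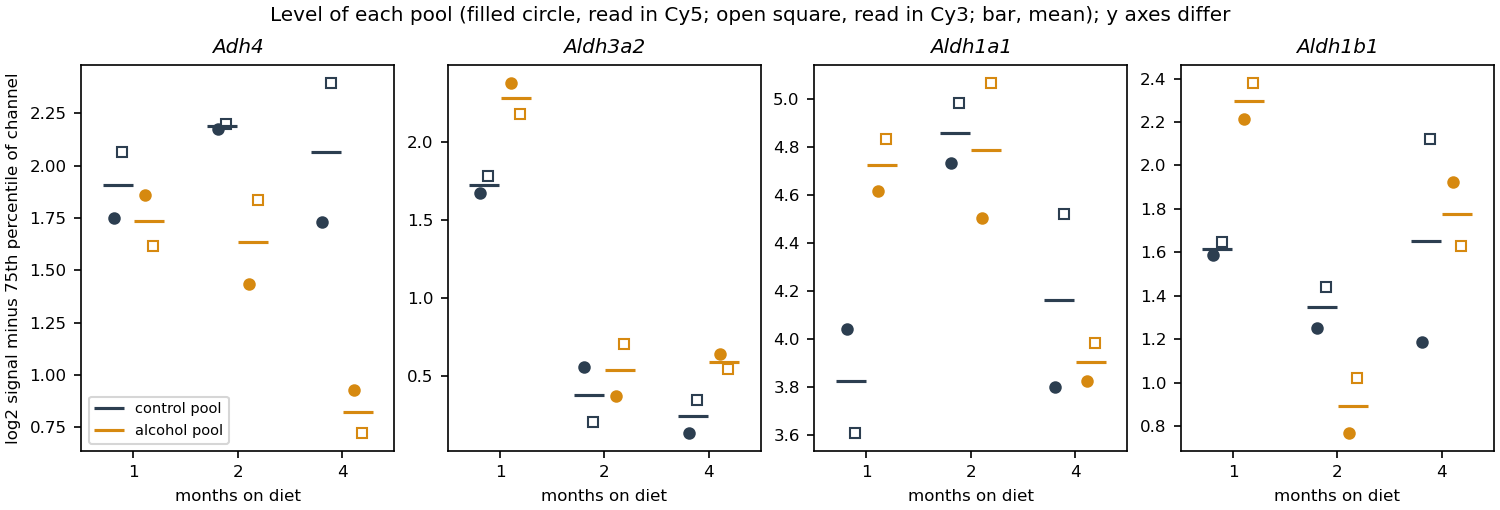
Log2 signal minus the 75th percentile of the channel (y axis, a separate range in each panel) in the control and alcohol pools after 1, 2 and 4 months (x axis). Filled circles were read in Cy5, open squares in Cy3, and bars are means. The 4-month alcohol pool was lowest for Adh4, at 0.93 and 0.72, and for Aldh3a2 both 1-month pools, from 1.67 to 2.38, were above all later pools.

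By Euclidean distance over the 6 array ratios, among 27897 unsaturated probes measured on all arrays, the named genes most like Adh4 were Ces3b (distance 0.457), Hsd3b2 (0.502) and Saa1 (0.519). Ces3b, a carboxylesterase, had mean ratios of -0.09, -0.58 and -0.96 at 1, 2 and 4 months. Hsd3b2, a steroid dehydrogenase, had 0.003, -0.62 and -1.35, and Saa1, an acute phase protein of plasma, had 0.07, -0.66 and -1.001. These genes were picked for their likeness over the same ratios, so that a shared course over the months follows from the choice. Hsd3b2 and Saa1 belong to families of near-identical genes, so their probes can carry signal of relatives.

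Adh1, the class I enzyme that carries most ethanol oxidation in mouse liver, has 3 probes, which did not give one direction. The brightest probe gave log2 ratios of 0.48 and 0.10 at 1 month (mean 0.29 ± 0.27), -0.42 and -0.13 at 2 months (mean -0.28 ± 0.21), and 0.59 and -0.26 at 4 months (mean 0.16 ± 0.60). A second probe of the same RefSeq transcript gave means of 0.21 ± 0.01, -0.08 ± 0.38 and 0.04 ± 0.64. At 4 months this second probe read -0.41 with the alcohol pool in Cy5 and 0.49 with it in Cy3, opposite in both dyes to the first. Both probes were higher on both arrays at 1 month, and the mean over months of the brightest was 0.06 (95% interval -0.27 to 0.38, limma adjusted p = 0.920). The third probe, which carries the accession of another cDNA, was well above background on 1 array of 1 month and on no later array, so no ratio is read from it for 2 and 4 months. On that array, with the alcohol pool in Cy5, its ratio was -0.32, where the other probes were above 0.

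Adh5, the class III enzyme, acts mainly on formaldehyde bound to glutathione and only weakly on ethanol. Its 1-month mean ratio was -0.12 ± 0.02, followed by -0.24 ± 0.62 at 2 months and -0.16 ± 0.78 at 4 months. The 2 arrays agreed at 1 month (-0.10 and -0.13) and opposed each other later, at -0.68 and 0.20 and then -0.71 and 0.39. Its mean over months was -0.17 (SE 0.06, limma adjusted p = 0.625), but the direction held on both arrays of 1 month only, and with the alcohol pool in Cy3 alone the mean was 0.15.

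Adh7, the class IV enzyme, is known from stomach and other epithelia rather than liver. Its signal was low, between 146 and 601 units per channel. Its mean ratios were -0.27 ± 0.19, 0.27 ± 0.39 and 0.04 ± 0.49, with both arrays below 0 at 1 month and both dyes opposed later. Stomach markers had median ratios of -0.01, -0.03 and 0.05 over 7 genes at the 3 months.

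Aldh3a2, the fatty aldehyde dehydrogenase of the endoplasmic reticulum and peroxisomes, was the one enzyme with higher signal in the alcohol pool on all 6 arrays. The ratios were 0.59 and 0.50 at 1 month (mean 0.55 ± 0.06, 1.46-fold), 0.17 and 0.15 at 2 months (mean 0.16 ± 0.02, 1.12-fold), and 0.29 and 0.41 at 4 months (mean 0.35 ± 0.09, 1.27-fold). In each month the mean exceeded the difference between the 2 arrays. Over the 3 months the mean was 0.35 (SE 0.09, 95% interval 0.11 to 0.60, limma adjusted p = 0.616), and the slope with time was -0.10 (adjusted p = 0.940), at -0.15 from the arrays with the alcohol pool in Cy5 alone and -0.05 from the others.

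Levels of Aldh3a2 in the control pool of 1 month were 1.67 and 1.78, followed by 0.56 and 0.20 for 2 months and 0.13 and 0.35 for 4 months. In the alcohol pool they were 2.38 and 2.18, 0.37 and 0.70, and 0.64 and 0.54. The pools were apart at 1 and 4 months and overlapped at 2 months. A larger difference lay between months than between diets: the control pool was lower at 4 months than at 1 month by 1.48 ± 0.17 on the log2 scale, by 0.93 when channels were centred on their median and by 1.75 after loess and Aquantile normalization, and this difference cannot be told apart from the slide. Over all 27900 probes measured on all arrays, the control pool of 4 months was lower than that of 1 month by more than the combined SD of the dye readings for 47.2%, with a median difference of -0.30. Between 2 and 4 months, on one slide, the control pool differed by -0.14 ± 0.29.

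Aldh1a1 encodes the main cytosolic retinal dehydrogenase, which also oxidizes acetaldehyde. At 1 month its ratios were 1.01 and 0.79 (mean 0.90 ± 0.16), and 99.8% of all probes had a lower mean ratio. At 2 months they were -0.47 and 0.34 (mean -0.07 ± 0.57), and at 4 months -0.70 and 0.18 (mean -0.26 ± 0.63). Higher signal in the alcohol pool was therefore measured at 1 month, and at the later months the direction followed the dye. The slope with time was -0.58 (SE 0.14, limma adjusted p = 0.687), and it was -0.86 from the arrays with the alcohol pool in Cy5 alone and -0.30 from those with it in Cy3 alone. In the 1-month pools the levels were 4.04 and 3.61 in control and 4.61 and 4.83 in alcohol, and at 2 months, on the other slide, control levels were 4.73 and 4.98. Aldh1a7, a close relative whose transcript can share signal with the Aldh1a1 probe, had ratios of 0.30 and 0.28 at 1 month and means of -0.10 and 0.02 at 2 and 4 months.

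Aldh1b1, a mitochondrial enzyme that also oxidizes acetaldehyde, was higher on both arrays at 1 month, at 0.56 and 0.79 (mean 0.68 ± 0.16). It was lower on both at 2 months, at -0.67 and -0.23 (mean -0.45 ± 0.31), and its 4-month arrays opposed each other at -0.21 and 0.45 (mean 0.12 ± 0.46). Levels in the alcohol pool were 2.21 and 2.38, 0.77 and 1.02, and 1.92 and 1.63 at the 3 months, against 1.59 and 1.65, 1.25 and 1.44, and 1.18 and 2.12 in the control pool. The 2-month alcohol pool was the lowest of the 6 pools and the 1-month alcohol pool the highest. The mean over months, 0.12, was smaller than the SD of the 3 months, 0.56 (limma adjusted p = 0.909).

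Markers of other cells were also measured in the 1-month pools in which Aldh1a1, Aldh1b1 and Aldh3a2 were higher. Both arrays were above 0 for 3 of 4 blood markers, 4 of 4 endothelial markers and 3 of 6 macrophage markers, beside 23.3% of all probes measured on all arrays. The blood markers Hba-a1, Hbb-bt, Slc4a1 and Alas2 had mean ratios of 1.51, 1.97, 0.15 and 0.05, with a summed linear signal, in multiples of the 75th percentile of the channel, of 86.9 in the alcohol pool against 27.6 in the control pool. Endothelial markers had a median of 0.36 and summed signals of 3.31 and 2.55, and macrophage markers had a median of 0.14 and summed signals of 23.5 and 22.1, Adgre1 alone being raised 2-fold at 1.23. All of these genes were above background in both pools. Their part in the 1-month values was not tested. Blood, endothelial and macrophage lists had 2-month medians of -0.13, -0.07 and -0.07, and their 4-month medians were 0.30, 0.07 and 0.02.

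Aldh2 encodes the mitochondrial enzyme that clears most acetaldehyde. Its bright probe gave mean ratios of 0.03 ± 0.12, -0.01 ± 0.65 and -0.02 ± 0.51, and a dimmer probe, which carries the accession of another cDNA, gave 0.05 ± 0.13, 0.13 ± 0.04 and 0.03 ± 0.10. The mean over months of the bright probe was -0.003 with a 95% interval from -0.16 to 0.15 (limma adjusted p = 0.993). With the alcohol pool in Cy5 the bright probe read -0.06, -0.47 and -0.38, and with it in Cy3 0.11, 0.44 and 0.34, so that its direction followed the dye at every month.

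The 1-month mean ratio of Cyp2e1 was 0.07 ± 0.06, and its later means were 0.08 ± 0.58 (2 months) and 0.19 ± 1.14 (4 months). With the alcohol pool in Cy5 the ratios were 0.11, 0.49 and 1.00, and with it in Cy3 they were 0.03, -0.33 and -0.62. The half-difference between the 2 arrays, 0.81 at 4 months, was the largest among the 12 probes and exceeded the mean of that pair. Over months the mean was 0.11 with a 95% interval from -0.05 to 0.28 (limma adjusted p = 0.687), an interval that takes the 3 means as given and does not carry the spread between arrays. The direction followed the dye at 2 and 4 months, and the smallest mRNA difference that could be detected was not computed. Pericentral hepatocyte markers, which share the zone of Cyp2e1, had medians of 0.06, 0.18 and -0.06 over 9 genes, of which 7, 5 and 4 were above 0 at 1, 2 and 4 months. At 2 months they ran from -0.55 for Rgn to 1.15 for Axin2, the one gene of the list called at 2-fold. Axin2 was not well above background in both channels of every array, and its mean ratio at 4 months was -0.65.

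Cat, which encodes catalase, gave 0.11 and 0.15 at 1 month (mean 0.13 ± 0.03), -0.04 and -0.34 at 2 months (mean -0.19 ± 0.22), and 0.20 and -0.07 at 4 months (mean 0.07 ± 0.19). The arrays of 1 month were both above 0 and those of 2 months both below. The mean over months was 0.002 (95% interval -0.22 to 0.23, limma adjusted p = 0.996).

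**Figure D3:**
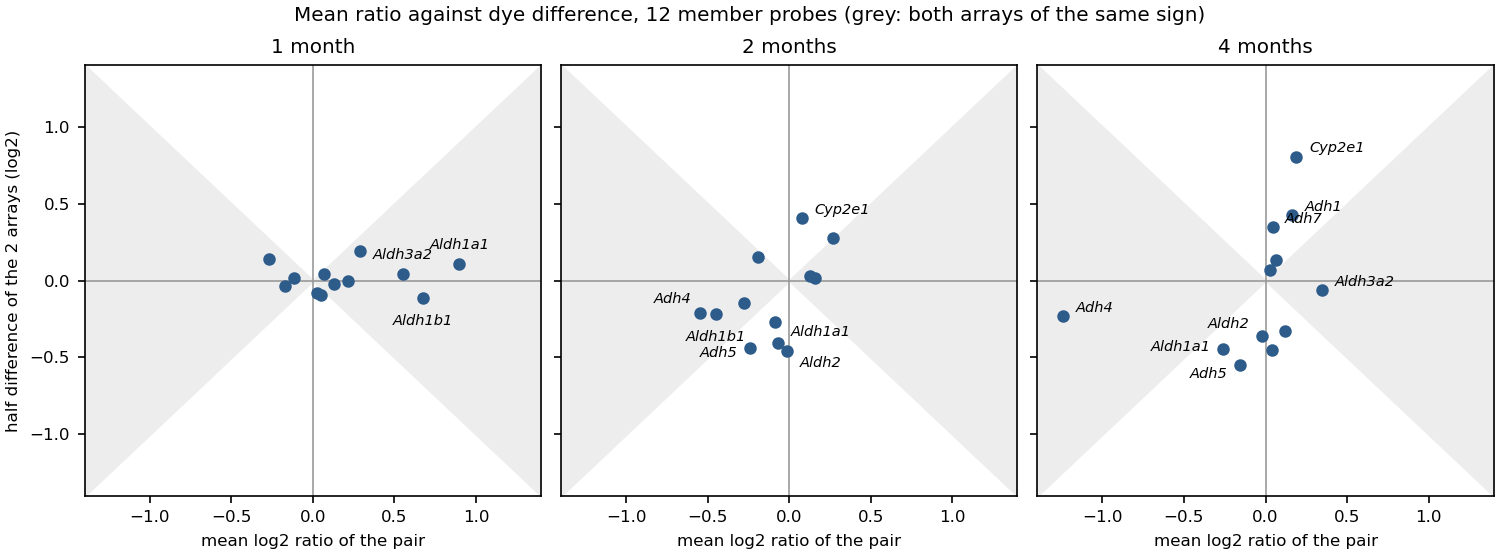
Mean log2 ratio of each dye-swap pair (x axis) against the half-difference between its 2 arrays, alcohol in Cy5 minus alcohol in Cy3 (y axis, log2), for the 12 probes measured on all arrays. In the grey area both arrays have the same sign, which held for 10 probes at 1 month, 6 at 2 months and 2 at 4 months. Cyp2e1 at 4 months lay at 0.19 and 0.81.

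The median size of this half-difference over the 12 probes was 0.06, 0.25 and 0.36 at 1, 2 and 4 months. Over all probes measured on all arrays it was 0.09, 0.17 and 0.20, a comparison not matched for brightness. At the later months the half-difference of the 12 probes was thus larger than the median size of their ratio, 0.18 and 0.14. Of the 10 probes whose arrays opposed each other at 4 months, those of Cyp2e1, Adh7 and Cat, the bright Adh1 probe and the dimmer Aldh2 probe read higher when the alcohol pool was in Cy5. Those of Aldh1a1, Adh5 and Aldh1b1, the bright Aldh2 probe and the second Adh1 probe read higher when it was in Cy3. Of the 156 channel readings of the enzymes' probes, 90 came from the low-gain scan that replaces bright or saturated signals.

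Related enzymes were measured as 7 lists of genes, of which no gene passed the limma tests. The median log2 ratio of each list lay between -0.17 and 0.20 at every month. The median of all probes was 0.00, 0.01 and -0.01 and that of the 10 enzymes 0.10, -0.13 and 0.05. At 2 and 4 months the list medians mostly followed the dye. With the alcohol pool in Cy5 they lay between -0.41 and -0.01, and with it in Cy3 between -0.05 and 0.56. Only the list of peroxisomal genes stayed below 0 in both dyes. Other alcohol dehydrogenases and carbonyl reductases (9 genes measured) had medians of 0.14, -0.17 and -0.14, and 1 of them, the pseudogene Adh6-ps1, was lower on all 6 arrays by a small amount, at -0.07, -0.23 and -0.30. Other aldehyde dehydrogenases and aldehyde oxidases (18 genes) had medians of 0.04, -0.02 and 0.02. Among these, Aox3, an aldehyde oxidase of liver, was lower on all 6 arrays, with means of -0.72 ± 0.04, -0.90 ± 0.01 and -0.96 ± 0.21, while Aldh5a1, the succinic semialdehyde dehydrogenase, was higher on all 6 by at most 0.16.

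Among the P450 redox partners and other P450s that oxidize ethanol (9 genes), Cyp3a11, a P450 with many drug substrates, was the only gene called, at 2 and 4 months. Its mean ratios were 0.94 ± 0.26, 1.29 ± 0.73 and 2.40 ± 0.96, higher on all 6 arrays, and its relatives of the Cyp3a family can share its signal. At 4 months, when the Cyp2e1 arrays opposed each other, Cyp3a11 was 5.29-fold higher. The list's median was 0.11, -0.04 and 0.20.

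Peroxisomal enzymes that make hydrogen peroxide, the co-substrate of catalase, and peroxisomal import factors (15 genes) had medians of 0.01, -0.01 and -0.10. Of 13 genes measured on all arrays, 3 were lower and 1 higher on all 6, beside 2.68% and 1.61% of all probes measured on all arrays. Uox, urate oxidase, was lower at -0.60 ± 0.66, -0.69 ± 0.14 and -0.39 ± 0.30, and Pex11a, a peroxisome division factor, was higher at 0.23 ± 0.15, 0.91 ± 0.39 and 0.54 ± 0.50. Enzymes that remove peroxide and superoxide (14 genes) had medians of 0.05, -0.13 and 0.04, and genes of the NADH shuttles and lactate (14 genes) had 0.11, -0.13 and -0.03, with 0 genes of either list in one direction on all 6 arrays.

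In the list of acetate use (6 genes measured), Acly, the ATP citrate lyase that makes cytosolic acetyl-CoA, was lowered at 1 month, at -1.004 ± 0.49, and had means of -0.49 ± 0.34 and -0.17 ± 0.53 later. Slc16a7, a transporter of monocarboxylates, was higher on all 6 arrays, with means of 0.48 ± 0.33, 0.37 ± 0.49 and 0.54 ± 0.60. The list's median was 0.01, 0.09 and 0.10.

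**Figure D4:**
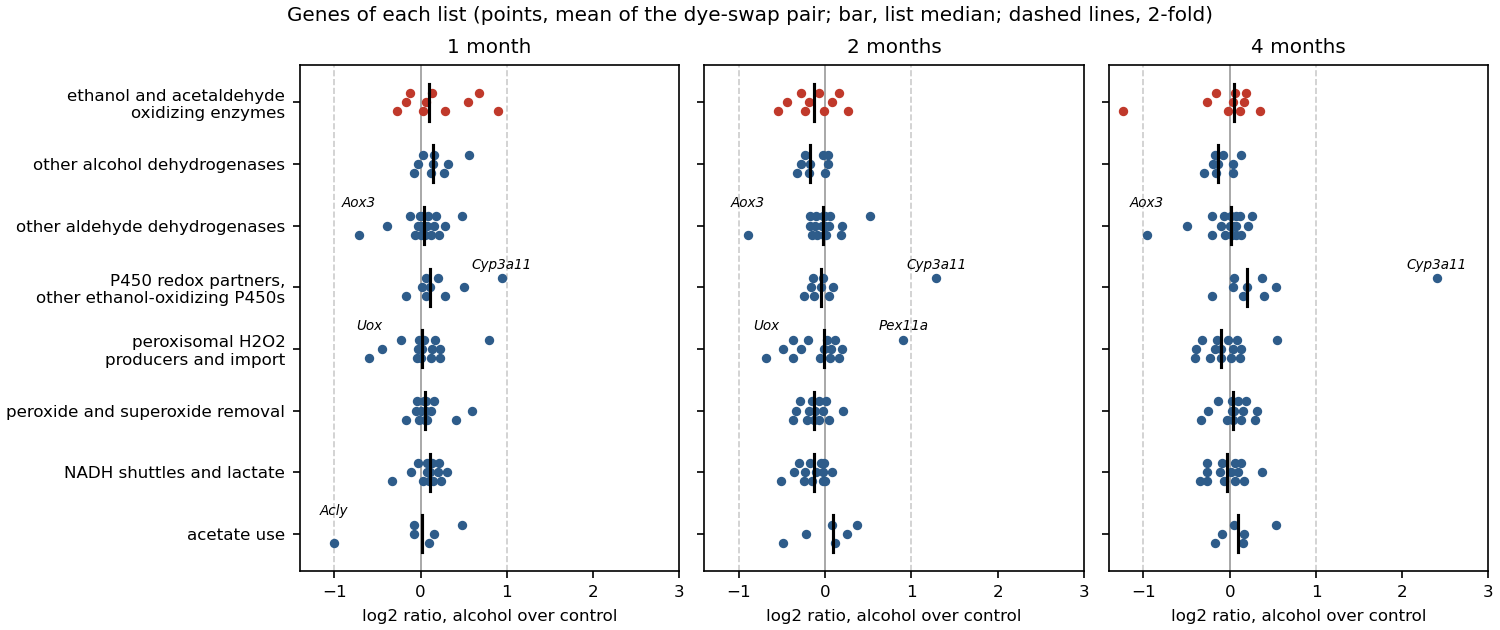
Mean log2 ratio of the dye-swap pair (x axis) for the 10 enzymes and for each measured gene of the 7 related lists (rows) at each month. Bars are list medians and dashed lines a 2-fold difference. Cyp3a11 at 2 and 4 months (1.29 and 2.40), Acly at 1 month (-1.004) and Adh4 at 4 months (-1.24) are the genes at or past 2-fold, and the other genes lie between.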

How the data were processed

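Pools of liver RNA from alcohol-fed and control mice were compared at 1, 2 and 4 months on 6 two-color arrays, 2 per month with exchanged dyes. The authors deposited Feature Extraction 9.1.1.1 output with, for each spot, background-corrected and dye-normalized intensities of both channels. Its log10 ratio (Cy5 to Cy3) and a modeled error of that ratio were deposited too. They also deposited a table of log10 ratios, alcohol over control, with a median of 0 per array; for 100% of 40929 single-spot probes it lay within 0.02 (log2) of the ratio in the scanner output. The column of deposited p-values was not used.

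From the deposited intensities, log2 ratios of alcohol over control were averaged over spots of a probe, and both arrays of a month were averaged after that; the study's methods name only the second step. Since both arrays of a month hold the same RNA, they count as 1 replicate. Control spots were not used. limma 3.58.1 in R 4.3.3 was run on the 3 monthly values, without a block. It covered 37922 probes that were well above background in any channel of any array. It was also run on simulated data, and the share of changed probes that it recovered is not reported here. Levels are log2 intensity minus the 75th percentile of the channel, read in both dyes and compared only within a probe. Where a gene had several probes, the brightest was named first. RefSeq accessions name 25510 probes, 22951 of which matched a current symbol (GRCm38.p6 table).

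The enzymes and the gene lists were chosen with earlier results of these data known. Named genes are all probes of the enzymes, list members called at 2-fold at any month, in each list the gene of largest mean ratio in each direction among those with one direction on all 6 arrays, the 3 genes nearest to the enzyme gene with the largest mean ratio, and markers whose list moved at a month. The array's Ela2, listed as an acinar marker, carries the accession of neutrophil elastase and was left out of that list. Alternatives were normexp (offset 50) with loess, the log10 ratio column, the deposited table, an error-weighted average, each array alone, median centring, other filters and thresholds, the mean over probes, each month left out, 2 other channel scalings, an unmoderated t-test and time on a linear scale. Python 3.11.15 was used with pandas 2.3.3, numpy 2.4.6, matplotlib 3.10.9 and scipy 1.17.1.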

Additional observations from a re-analysis of the deposited data

Results flagged for a closer look

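Of the enzymes, 3 genes had both arrays of 1 month above 0 and both arrays of 2 months below 0; these differences between months were not tested. For Aldh1b1 the mean ratio went from 0.68 to -0.45, a difference of -1.12. For the bright Adh1 probe it went from 0.29 to -0.28, a difference of -0.56, and for Cat from 0.13 to -0.19, a difference of -0.32. Of all 27900 probes measured on all arrays, 9.52% had both arrays of 1 month on the opposite side of 0 from both arrays of 2 months, beside 3 of the 12 probes of the enzymes, and the slide changed between these months. Between 1 and 4 months 0 of the 12 probes did so, beside 7.51% of all, and between 2 and 4 months 0, beside 4.23%.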

How the results depend on the processing

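After normexp with loess, limma called 9 probes for the effect and 50 for the trend, against 0 and 0 in the processing used above. Among the 27900 probes measured in both channels on every array it called 6 for the effect. A t-test without moderation called 1 for the trend. The cause of these differences was not tested. Enzyme probes called at 1 month were 0 to 1 with one array of the pair alone and 2 at 1.5-fold, and the call of Adh4 at 4 months held under every alternative run, both arrays alone included. The mean over months was below 0 for Adh4 (-0.90 to -0.36) and above 0 for Aldh3a2 (0.25 to 0.45) under every alternative, and no enzyme passed an adjusted p of 0.05 under any.

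Other means over months changed sign. Leaving out 1 array of each pair or 1 month gave ranges of -0.10 to 0.23 (Adh1), -0.50 to 0.15 (Adh5), -0.24 to 0.27 (Adh7), -0.16 to 0.44 (Aldh1a1), -0.16 to 0.40 (Aldh1b1), -0.30 to 0.30 (Aldh2), -0.31 to 0.53 (Cyp2e1) and -0.0862 to 0.10 (Cat). The mean over probes gave -0.0571 for Adh1 and 0.0326 for Aldh2, the weighted average -0.0124 for Adh7, and for Aldh2 normexp with loess gave 0.0146 and median centring 0.000806. For slopes, single arrays ranged from -0.18 to 0.0574 (Adh1), -0.30 to 0.26 (Adh5), -0.16 to 0.11 (Aldh2), -0.32 to 0.44 (Cyp2e1) and -0.11 to 0.0443 (Cat), and without a change of sign from 0.05 to 0.26 (Adh7) and -0.38 to -0.17 (Aldh1b1); the mean over probes gave 0.0109 for Adh1 and linear time 0.000137 for Cat. All 270 recomputed monthly ratios stayed within the SD of their 2 arrays, of which the single arrays are a part by construction; 11 of 40 control level differences and 6 of 84 list medians moved by more.

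Slide as a random block could not be fitted. Within slides, 1 month against the mean of 2 and 4 months, the values were -0.17 and -0.90 for Adh4, 0.55 and 0.25 for Aldh3a2, 0.90 and -0.16 for Aldh1a1 and 0.68 and -0.16 for Aldh1b1. Each ratio is already paired, since both pools of a month share an array, and no replicate block could be added, since the labels carry no replicate numbers and the 2 arrays of a month hold the same RNA. With 1 pool per group and month, the limits are set by 3 monthly values.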

Other observations

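The control pools of 2 and 4 months, which lay on one slide, differed by more than the combined SD of their dye readings for 5 of the 10 enzymes, all lower at 4 months, beside 16.1% lower and 17.0% higher by this rule over all 27900 probes measured on all arrays; the rule is no test between mice. The differences in level, 4 minus 2 months on the log2 scale, were -0.98 ± 0.60 for Cyp2e1, -0.82 ± 0.45 for Adh1, -0.70 ± 0.54 for Aldh1a1, -0.49 ± 0.39 for Aldh2 and -0.45 ± 0.07 for Cat. After loess and Aquantile normalization they were -0.42, -0.32, -0.41, 0.04 and -0.12, so the sign for Aldh2 turned and every size was smaller. Each value compares 1 pool with 1 pool. The first-named probes of these 5 enzymes were the brightest of the 10, each brighter than 98.4% to 99.3% of all probes tested. Those of the other enzymes were brighter than at most 93.5%. The part of brightness in these differences was not tested.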
